A study of Homo sapiens with 6 samples.

Results

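The genes described here encode the cohesin ring, its loader and the cofactors that establish, maintain and end sister chromatid cohesion. They are the 10 genes SMC1A, SMC3, RAD21, STAG1, STAG2, NIPBL, CDCA5, ESCO2, ESPL1 and PTTG1. They were chosen by name, with earlier results of these data known, and were read from a table of 13161 genes with normalised counts. All 10 are also among the 13008 genes of the authors' deposited comparison table, and all 10 passed the filter on low values. In all, 6 libraries of polyadenylated RNA were made from Tet-FLAG-FOXM1c-hTERT-RPE1 cells, a telomerase-immortalised human line from retinal pigment epithelium that carries a tetracycline-inducible transgene for FLAG-tagged FOXM1c, a forkhead transcription factor of the late cell cycle. The dox group (3 libraries, labelled FOXM1 overexpression) had received 1 µg/mL doxycycline every 24 h over 48 h, and the no dox group (3 libraries, labelled WT with treatment none) was the same transgenic line without induction. The sources used here do not say whether the line is 1 clone, and no line without the transgene was treated, so doxycycline itself and the induced FOXM1c cannot be told apart.

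Cohesin is a ring of the SMC1A, SMC3 and RAD21 proteins, to which either STAG1 or STAG2 binds. NIPBL loads the ring onto chromatin, where the ring also shapes chromosome loops. During S phase ESCO2 acetylates SMC3, and sororin, encoded by CDCA5, then binds the ring and blocks its release, so that the sister DNAs stay together until separase (ESPL1) is freed from its inhibitor securin (PTTG1) and cuts RAD21 at anaphase. The ring and loader are used in interphase as well, whereas the cofactors CDCA5, ESCO2, ESPL1 and PTTG1 are known as cell-cycle-regulated genes.

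The depth, computed from the worth of 1 read in the CPM values, was 25148936 to 49882123 reads in dox libraries and 15094498 to 32280300 reads in no dox libraries, and the 10 genes held between 288 and 17029 reads per library. FOXM1 had 65289, 66830 and 74976 normalised counts in dox libraries 1, 2 and 3, against 5009, 4383 and 4292 in no dox libraries 1, 2 and 3, a 15.1-fold difference in which transgene and endogenous reads were not separated (limma adjusted p = 4.49e-06). Of the pigment epithelium markers, TTR was listed at 0 in every library and RPE65, BEST1, RLBP1, PMEL and TYR stayed at or under 0.220 FPKM, while MITF (2.06 to 2.23 FPKM) and OTX2 (1.91 to 3.14 FPKM) were measured. The summed level of that 8-gene list was 4.28 to 5.46 FPKM in dox libraries and 4.46 to 5.51 FPKM in no dox libraries. Of the simple epithelial markers KRT8 and KRT18 carried the signal (list sums of 68.0 to 98.7 FPKM in dox libraries and 54.6 to 77.6 FPKM in no dox libraries), EPCAM was listed at 0, and CDH1 and KRT19 stayed at or under 0.069 FPKM. Leukocyte and endothelial list sums were at or under 0.058 FPKM, and the 7-gene mesenchymal list, led by VIM, summed to 302.8 to 421.6 FPKM in dox libraries and 331.2 to 440.3 FPKM in no dox libraries. With the replicate number as a block KRT8 (log2 change 0.29) and KRT18 (0.32) rose and THY1 (-0.27) fell, with limma adjusted p-values of 0.00111, 0.000804 and 0.00311, and their part in the cohesin values was not tested.

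With doxycycline sororin and, once libraries were matched by replicate number, all 4 cofactors and 3 ring genes fell, whereas SMC3, STAG2 and NIPBL passed neither fit. CDCA5 fell by 43.4% (limma without a replicate term, adjusted p = 0.0420) and was the only one of the 10 called in that fit, in which 0.22% of the 13153 tested genes were called lower and 0.319% higher. In 6 of the 10 genes all dox libraries lay below all no dox libraries, which held for 10% of all tested genes, and in 8 of the 10 each dox library was below its same-numbered partner, which held for 28.5%. Over all tested genes, same-numbered libraries shared much of their deviation from the group means. Over the 10 cohesin genes these deviations correlated at 0.313, 0.731 and 0.410 in pairs 1, 2 and 3, less than over all genes in pairs 1 and 3. With the number as a block CDCA5, ESPL1, ESCO2, PTTG1, SMC1A, RAD21 and STAG1 all fell, 7 of 10, where 12.4% of all tested genes were called lower. In that blocked fit 4 of 4 cofactors and 3 of 6 ring and loader genes were called lower and none of the 10 was called higher, where 10.2% of all tested genes were called higher. The median log2 change was -0.59 over the 4 cofactors, -0.13 over the 6 ring and loader genes and -0.0022 over all tested genes. On the FPKM scale CDCA5 missed the threshold without the block (limma adjusted p = 0.0850), and with it ESCO2, PTTG1 and STAG1 did (limma adjusted p = 0.0565, 0.0861 and 0.125). In bulk RNA, fewer cells in the phases that use these genes and less RNA per cell cannot be told apart.

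**Figure D1:**
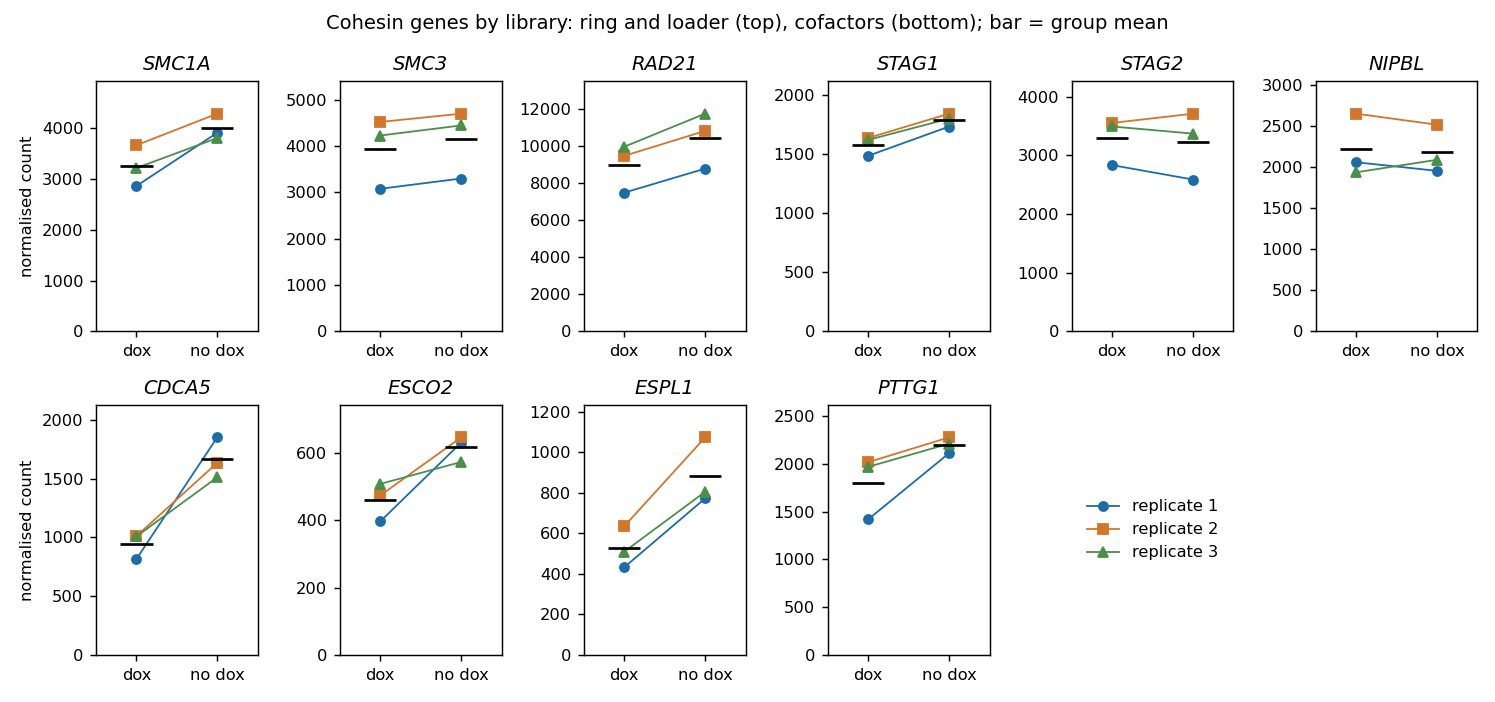
Normalised count (y axis from 0) of each cohesin gene in dox and no dox libraries (x axis), with lines joining libraries of the same replicate number and a black bar at each group's mean of 3 libraries. All 3 dox libraries lie below all 3 no dox libraries for CDCA5, ESCO2, ESPL1, PTTG1, SMC1A and STAG1, while SMC3, RAD21, STAG2 and NIPBL overlap.

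Of the 3 ring proteins, SMC1A had the log2 change of largest size. SMC1A (chrX:53401070-53449677, hg19, minus strand), a coiled-coil ATPase subunit, had 2864, 3668 and 3219 normalised counts in dox libraries 1, 2 and 3, against 3915, 4291 and 3811 in no dox libraries 1, 2 and 3. Every dox library was below every no dox library, and dox library 1 was the lowest. The log2 change was -0.31 (SE 0.10) with a limma adjusted p of 0.261 without the block and 0.00302 with it, and the same-numbered pairs differed by -0.45, -0.23 and -0.24. SMC3 (chr10:112327449-112364394, hg19, plus strand), its partner ATPase and the subunit that ESCO2 acetylates, had 3077, 4520 and 4227 normalised counts in dox libraries, against 3299, 4699 and 4445 in no dox libraries. The groups overlapped widely and both libraries numbered 1 were low, yet each dox library was slightly below its same-numbered partner. With a log2 change of -0.076, SMC3 passed neither fit (limma adjusted p = 0.917 without the block and 0.208 with it), and the 95% interval in the blocked fit ran from -10.9% to 0.965%.

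RAD21 (chr8:117858174-117887105, hg19, minus strand), the kleisin that closes the ring and that separase cuts, had 7482, 9469 and 9962 normalised counts in dox libraries, against 8781, 10817 and 11748 in no dox libraries. The groups overlapped, but each dox library was below its same-numbered partner by a like amount, with pair differences of -0.23, -0.19 and -0.24 on the log2 scale. RAD21 therefore passed only with the block (log2 change -0.22, limma adjusted p = 0.00402, against 0.611 without it). UTP23 on the opposite strand shares 518 of the 6192 exon bases of RAD21 in GENCODE 29 and had a log2 change of -0.046 (limma adjusted p = 0.929). The sources used here do not say if reads were counted by strand.

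The paralogues STAG1 and STAG2, alternative HEAT-repeat subunits of the ring, are given side by side, and the difference between their changes was not tested. STAG1 (chr3:136055077-136471220, hg19, minus strand) had 1488, 1640 and 1623 normalised counts in dox libraries, against 1736, 1846 and 1804 in no dox libraries. The dox libraries were all below the no dox libraries by a small margin, and STAG1 passed with the block only (log2 change -0.18, limma adjusted p = 0.0195, against 0.357 without it). In the blocked fit it missed the threshold without pair 2 (limma adjusted p = 0.125) or pair 3 (limma adjusted p = 0.0731). PCCB, a mitochondrial carboxylase subunit on the opposite strand, shares 1664 of the 7846 exon bases of STAG1 and rose (log2 change 0.47, limma adjusted p = 0.0480). Its part in the STAG1 value was not tested. STAG2 (chrX:123094062-123556514, hg19, plus strand) had 2834, 3554 and 3494 normalised counts in dox libraries, against 2588, 3713 and 3372 in no dox libraries. The groups overlapped and the pairs differed in sign. Its log2 change of 0.040 had a limma adjusted p of 0.948 without the block and 0.596 with it, and a 95% interval in the blocked fit of -4.60% to 10.8%. The log2 ratio of STAG2 over STAG1 was higher in dox than in no dox in all 3 pairs, by 0.35, 0.11 and 0.20, but the groups overlapped.

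NIPBL (chr5:36876861-37066515, hg19, plus strand), the cohesin loader, had 2062, 2656 and 1940 normalised counts in dox libraries, against 1958, 2521 and 2092 in no dox libraries. The groups overlapped and both libraries numbered 2 were highest. NIPBL had a log2 change of 0.014 (limma adjusted p = 0.985 without the block and 0.873 with it), with a 95% interval in the blocked fit of -6.77% to 9.30%. MAU2, the partner of NIPBL in the loader, had 1282, 1553 and 1321 normalised counts in dox libraries and 1317, 1419 and 1407 in no dox libraries, with a limma adjusted p of 0.997 in the blocked fit.

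The acetyltransferase and sororin, which establish cohesion, were lower in all dox libraries than in any no dox library. ESCO2 (chr8:27629466-27670157, hg19, plus strand) had 397, 475 and 509 normalised counts in dox libraries, against 632, 647 and 574 in no dox libraries. The groups did not overlap, with the widest gap in pair 1 and the narrowest in pair 3 (pair differences of -0.67, -0.45 and -0.17). The log2 change was -0.43 (SE 0.12), with a limma adjusted p of 0.156 without the block and 0.00861 with it. Its span meets that of PBK, a mitotic kinase gene on the opposite strand, over 3021 bases but at no exon base of GENCODE 29. PBK itself fell (log2 change -0.90, limma adjusted p = 0.0467), and the part of its reads in the ESCO2 value was not tested. ESCO1, the interphase paralogue of ESCO2 and named here outside the naming rule, had 547, 678 and 475 normalised counts in dox libraries and 485, 665 and 504 in no dox libraries (log2 change 0.039, limma adjusted p = 0.732 with the block).

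CDCA5 (chr11:64833772-64851636, hg19, minus strand) had 815, 1010 and 1007 normalised counts in dox libraries, against 1850, 1634 and 1510 in no dox libraries. The groups lay far apart: the highest dox library was well below the lowest no dox library, and pair 1 held both the lowest and the highest value. The log2 change was -0.82 (SE 0.12), the largest in size of the 10 over all libraries, although ESPL1 exceeded it without dox library 2, without no dox library 1 and, with the block, without pair 1. It came with pair differences of -1.18, -0.69 and -0.58 and a limma adjusted p of 0.0420 without the block and 0.000482 with it. Leaving out any 1 of the 6 libraries raised the adjusted p above the threshold of 0.05 (0.0670 without dox library 1 to 0.178 without no dox library 2), while the log2 change stayed between -0.89 and -0.72. WAPL, the factor that opens the ring and that sororin counteracts, had 3144, 3452 and 3387 normalised counts in dox libraries and 3437, 3594 and 3548 in no dox libraries, and passed neither fit (limma adjusted p = 0.715 and, with the block, 0.180). The log2 ratio of CDCA5 over WAPL was lower in dox libraries than in no dox libraries by 1.05, 0.64 and 0.52 in pairs 1, 2 and 3.

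The protease that ends cohesion and its inhibitor were both lower in all dox libraries than in any no dox library. ESPL1 (chr12:53662083-53687427, hg19, plus strand), separase, had 432, 635 and 509 normalised counts in dox libraries, against 773, 1074 and 805 in no dox libraries. The groups did not overlap, and in each group library 2 was highest. The pair differences were -0.84, -0.76 and -0.66. With a log2 change of -0.75 and an SE of 0.17, ESPL1 had a limma adjusted p of 0.107 in the unblocked fit and of 0.000102 in the blocked one, where its SE was 0.062. PTTG1 (chr5:159848829-159855748, hg19, plus strand), securin, had 1419, 2018 and 1969 normalised counts in dox libraries, against 2112, 2278 and 2211 in no dox libraries. The groups did not overlap, although dox libraries 2 and 3 came close to the no dox libraries. The log2 change was -0.31 (SE 0.14), with a limma adjusted p of 0.401 without the block and 0.0171 with it. Without pair 1 the blocked log2 change of PTTG1 was -0.17 (limma adjusted p = 0.00551, with 4 libraries). The log2 ratio of ESPL1 over PTTG1 was lower in dox than in no dox by 0.26, 0.58 and 0.49 in pairs 1, 2 and 3, and its 3 dox values lay below its 3 no dox values. PTTG2 and PTTG3P, near-identical copies of PTTG1, were each above 0 in 1 library and at most 0.051 FPKM.

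**Figure D2:**
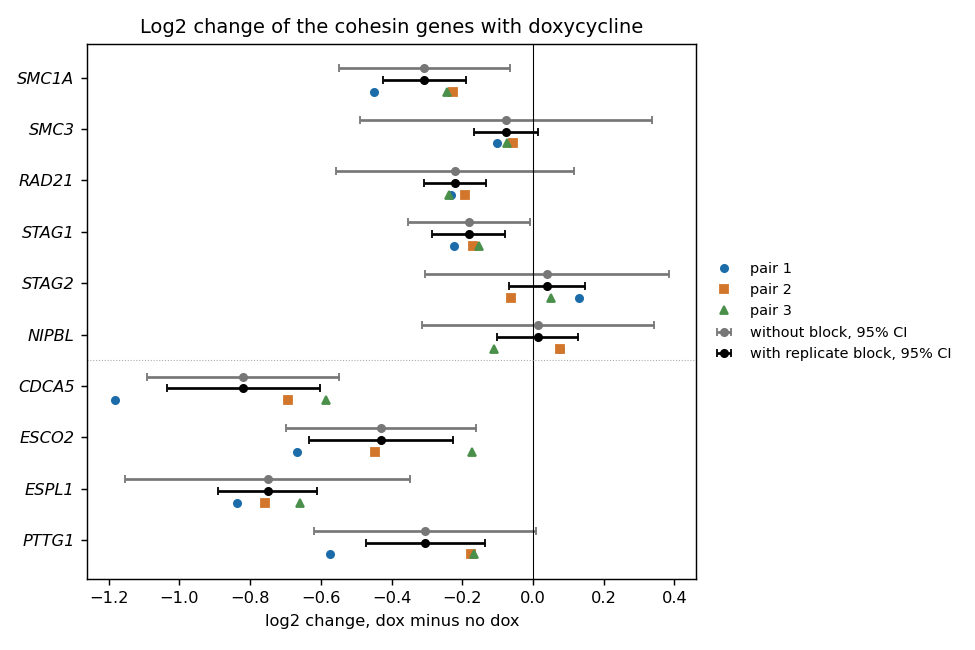
Log2 change of each cohesin gene, dox minus no dox (x axis), with the 95% interval without the replicate term in grey and with it in black, and the differences of the 3 same-numbered pairs as coloured symbols. The blocked intervals of SMC3, STAG2 and NIPBL include 0, while those of the other 7 genes lie below it.

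In the authors' deposited table CDCA5 (log2 fold change -0.81, adjusted p = 1.03e-06) and ESPL1 (log2 fold change -0.74, adjusted p = 0.00332) passed an adjusted p of 0.05 and carried the authors' mark for lower genes, 2 of the 106 genes so marked. Among the 13008 genes there, 1.52% passed as lower and 1.25% as higher. The other 8 cohesin genes did not pass there, and ESCO2, at an adjusted p of 0.183 in the authors' deposited table, came nearest.

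The replicate number went with more of the spread in SMC3, RAD21, STAG2 and NIPBL than in any of the cofactors. On the log2 scale, the share of the sum of squares over the 6 libraries that went with doxycycline was 90.4% for CDCA5, 76.7% for ESCO2, 74.6% for ESPL1 and 45.6% for PTTG1. Of the ring and loader genes, STAG1 (75.8%) lay above ESPL1 and PTTG1, and SMC1A (63.9%) lay above PTTG1. RAD21 had 27.6%, and SMC3, STAG2 and NIPBL had 2.61%, 1.11% and 0.148%. For those 3 genes the replicate number carried 97.2%, 94.4% and 93.8% of the spread, against 0.462% for CDCA5. The median share over all tested genes was 17.5% for doxycycline and 61.5% for the replicate number. The sources used here do not say what libraries of 1 number have in common.

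**Figure D3:**
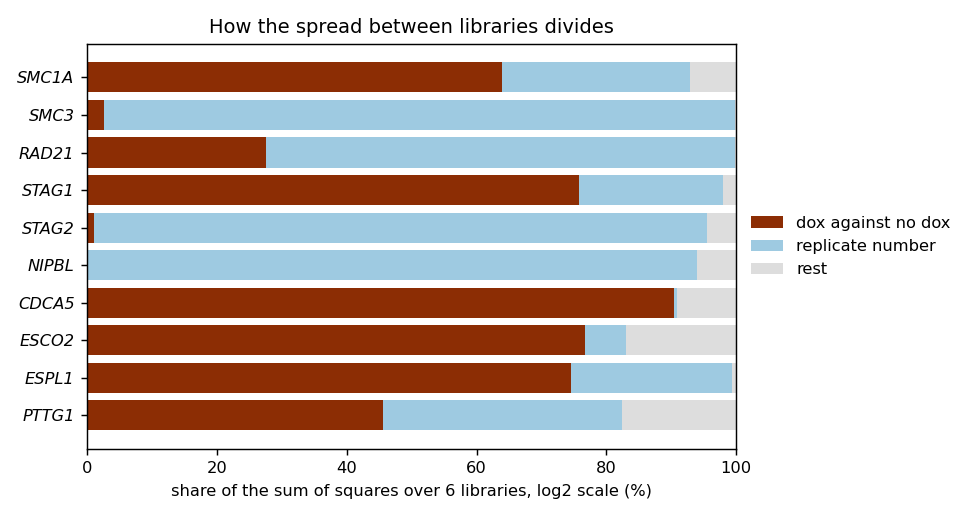
Share of each gene's sum of squares over the 6 libraries on the log2 scale (x axis, percent) that goes with dox against no dox, with the replicate number and with neither. CDCA5, at 90.4%, has the largest doxycycline share, and the bars of SMC3, STAG2 and NIPBL are nearly all replicate number.

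Taking the mean log2 normalised count of the 4 cofactors minus that of the 6 ring and loader genes in each library gave -2.11, -2.05 and -1.996 in dox libraries, against -1.43, -1.64 and -1.73 in no dox libraries. The 3 dox values were below the 3 no dox values, with pair differences of -0.68, -0.41 and -0.27. The group difference of -0.45 is given as a description without a test, since the genes were chosen with results of these data known, and only its change between libraries has meaning, because counts of different genes differ by length.

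Levels per length placed SMC3 and RAD21 at the top on the authors' scale. FPKM was 28.1 ± 5.99 for SMC3 and 25.2 ± 3.91 for RAD21 in dox libraries, against 28.97 ± 5.65 for SMC3 and 28.8 ± 4.204 for RAD21 without doxycycline (SD over 3 libraries, here and for the genes that follow), and the ranges of these 2 genes overlapped in both groups. PTTG1 followed with 11.7 ± 2.35 FPKM in dox libraries and 14.0 ± 0.863 in no dox libraries, and then SMC1A with 7.56 ± 1.16 in dox libraries and 9.13 ± 0.851 in no dox libraries. CDCA5 had 3.36 ± 0.451 FPKM in dox libraries and 5.79 ± 0.626 in no dox libraries, and it lay above STAG2 and NIPBL within each of the 6 libraries. Its range over libraries overlapped those of both genes in the dox group and neither in the no dox group. STAG2 (2.86 ± 0.398 FPKM in dox and 2.75 ± 0.543 in no dox libraries) and NIPBL (2.73 ± 0.564 in dox and 2.64 ± 0.430 in no dox libraries) did not differ beyond their spread. STAG1 (1.72 ± 0.128 FPKM in dox and 1.91 ± 0.104 in no dox libraries), ESCO2 (1.05 ± 0.135 in dox and 1.39 ± 0.123 in no dox libraries) and ESPL1 (0.645 ± 0.146 in dox and 1.06 ± 0.230 in no dox libraries) were lowest, and ESCO2 and ESPL1 overlapped in no dox libraries.

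That order depends on the length used. The authors' gene widths are 1.19 (SMC3) to 6.63 (STAG2) times the longest coding transcript in GENCODE 29. Per kilobase of that transcript, RAD21 came first with a mean of 83.2 CPM in dox libraries and 95.1 in no dox libraries, followed by PTTG1 (58.6 in dox and 70.2 in no dox libraries) and SMC3 (33.4 in dox and 34.4 in no dox libraries). STAG2 was next in dox libraries (19.0, against 12.7 for CDCA5), and CDCA5 in no dox libraries (21.9, against 18.2 for STAG2), where the ranges of CDCA5 and STAG2 overlapped. ESCO2 (4.09 CPM per kilobase in dox libraries and 5.37 in no dox libraries) and ESPL1 (2.77 in dox libraries and 4.57 in no dox libraries) were last on both scales. Per kilobase of the shortest transcript that carries the longest coding sequence, PTTG1 came first by mean (83.3 CPM in dox libraries and 99.7 in no dox libraries), level with RAD21 in dox libraries, and CDCA5 had 32.5 in dox libraries and 56.1 in no dox libraries, where its mean was above that of SMC3.

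**Figure D4:**
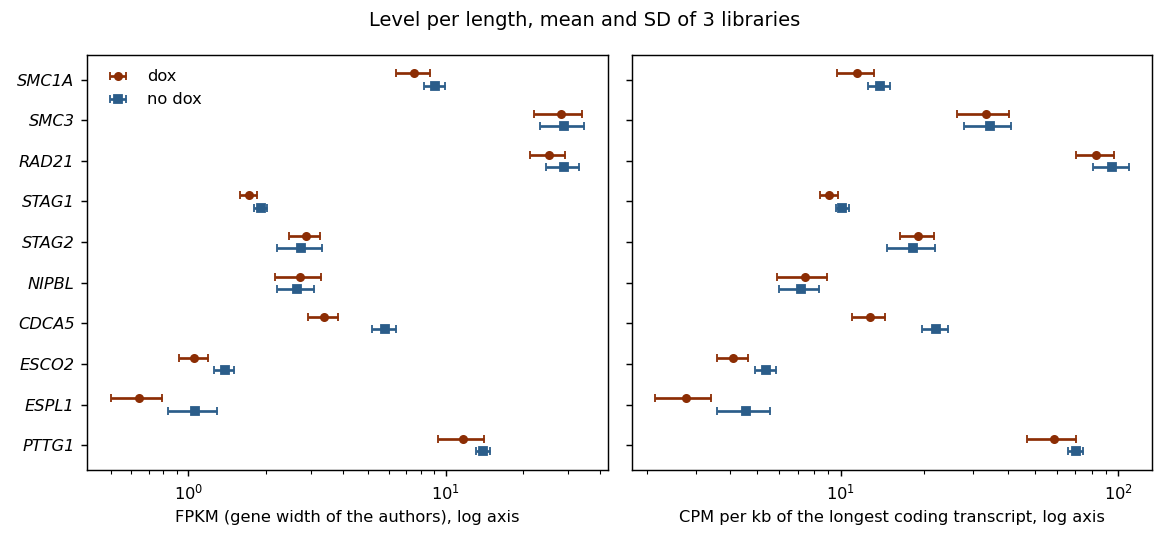
Mean and SD of 3 libraries for each cohesin gene in dox and no dox, as FPKM with the authors' gene widths (left) and as CPM per kilobase of the longest coding transcript (right), both on log axes. SMC3 leads on the left and RAD21 on the right, and ESPL1 is lowest on both.

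Promoter windows are shown because the cofactors fell in the blocked fit, as SMC1A, RAD21 and STAG1 also did. They are also shown because late cell-cycle promoters are known for a CHR element next to CCAAT boxes, and S-phase promoters for E2F sites. RefSeq (GRCh38.p14) gave windows of 250 bases before to 50 after the start for 8 of the 10 genes, 12 windows in all. No window was available for RAD21 or for the cofactor ESCO2, so these genes were not searched for motifs. Motifs were searched on both strands: CHR as TTTGAA or TTTAAA, the CCAAT box as CCAAT, E2F as TTCCCGC or its variant forms TTGGCGC, further TTCGCGC, and finally TTGCCGC, and the forkhead core as TAAACA. Of 35116 RefSeq windows of this length, 24.0% held a CHR, 34.6% a CCAAT box, 9.27% both, 13.0% an E2F match and 12.3% a forkhead core. Capitals mark matches, positions count from the start as +1, and ATTGG is CCAAT read on the other strand. The windows are CDCA5 at chr11:65083991-65084290 (minus strand), ESPL1 at chr12:53268049-53268348 (plus strand), the first of PTTG1 at chr5:160421605-160421904 (plus strand) and, as a gene that passed neither fit, the first of STAG2 at chrX:123960310-123960609 (plus strand).
CDCA5: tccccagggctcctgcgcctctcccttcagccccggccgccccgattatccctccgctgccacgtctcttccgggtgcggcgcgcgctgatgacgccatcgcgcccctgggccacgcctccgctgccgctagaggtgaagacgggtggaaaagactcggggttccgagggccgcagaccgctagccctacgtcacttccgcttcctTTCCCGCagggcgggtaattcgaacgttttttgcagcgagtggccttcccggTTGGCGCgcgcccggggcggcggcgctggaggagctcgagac
ESPL1: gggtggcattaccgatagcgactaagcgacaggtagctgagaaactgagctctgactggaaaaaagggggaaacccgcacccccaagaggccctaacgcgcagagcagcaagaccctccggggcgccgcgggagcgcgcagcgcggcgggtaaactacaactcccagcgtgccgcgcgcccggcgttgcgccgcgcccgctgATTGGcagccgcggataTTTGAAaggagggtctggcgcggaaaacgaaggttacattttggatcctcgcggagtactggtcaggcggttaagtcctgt
PTTG1: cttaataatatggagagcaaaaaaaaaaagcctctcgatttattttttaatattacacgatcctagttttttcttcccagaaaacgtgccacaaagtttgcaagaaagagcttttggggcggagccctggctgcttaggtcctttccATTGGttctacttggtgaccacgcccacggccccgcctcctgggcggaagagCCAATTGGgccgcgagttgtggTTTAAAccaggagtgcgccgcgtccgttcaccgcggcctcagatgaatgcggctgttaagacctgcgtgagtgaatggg
STAG2: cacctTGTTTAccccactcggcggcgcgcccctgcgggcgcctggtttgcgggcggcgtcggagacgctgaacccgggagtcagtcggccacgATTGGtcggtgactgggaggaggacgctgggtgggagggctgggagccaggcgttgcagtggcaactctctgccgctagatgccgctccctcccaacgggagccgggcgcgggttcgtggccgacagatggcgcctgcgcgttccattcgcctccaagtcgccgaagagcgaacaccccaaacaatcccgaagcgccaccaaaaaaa

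Of the 8 genes with a window, 3 held a CHR (SMC3, ESPL1 and PTTG1), 4 a CCAAT box (STAG1, STAG2, ESPL1 and PTTG1) and 5 an E2F match (SMC1A, STAG1, STAG2, NIPBL and CDCA5), so that genes that passed neither fit are among the holders of each. A gene was counted if any of its windows matched, whereas the shares of RefSeq windows are per window, so the 2 are not on 1 scale. The E2F match of SMC1A was only in its window 2 and that of STAG2 only in its window 3. ESPL1 held ATTGG at -48 and the CHR TTTGAA at -31, and PTTG1 held ATTGG at -103, an overlapping CCAAT and ATTGG pair at -51 and -48, and the CHR TTTAAA at -29. In the second window of PTTG1, which starts elsewhere, the same CHR stands at -84. In SMC3 the CHR was at -151. CDCA5 held no CCAAT box and, on either strand, no TTTGAA or TTTAAA. Other forms of the CHR were not searched, so a CHR of another form in CDCA5 is not excluded. CDCA5 held E2F matches at -44 (TTCCCGC) and at 9 bases into the transcript (TTGGCGC). NIPBL held TTGGCGC at -48 and the third window of STAG2 held it at -50. The forkhead core was found in 1 of the 8 genes, STAG2, at -245 on the opposite strand as TGTTTA. These are matches of letters in short windows, and binding was not measured here.

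Of the other genes of the cohesion pathway, the mitotic release and protection factors and the replisome cohesion factors held most calls. In the list of 16 mitotic factors, 8 fell with the replicate block and none rose, where 12.4% of all tested genes were called lower. FPKM with the block left 4 called lower. The list had a median log2 change of -0.22, against -0.0022 over all tested genes. Its medians in pairs 1, 2 and 3 were -0.45, -0.13 and -0.13, largest in size in pair 1. The genes that fell had limma adjusted p-values from 0.000282 (BIRC5) to 0.0342 (CDC20). BIRC5, known as survivin and part of the chromosomal passenger complex, had 1291, 1677 and 1792 normalised counts in dox libraries, against 3366, 2785 and 3113 in no dox libraries. Its groups lay far apart, and it was the only gene of the list called in both fits (log2 change -0.97, limma adjusted p = 0.0411 without the block). CDCA8, another passenger subunit, fell with the block (log2 change -0.77), as did AURKB, their kinase (-0.32). The same held for BUB1 (-0.63) and HASPIN (-0.39), kinases whose histone marks place shugoshin and the passenger complex at centromeres, and for PLK1 (-0.52), the kinase that strips cohesin from arms in prophase. CDK1 (-0.39) and CDC20 (-0.34), which drive mitosis and activate the anaphase-promoting complex, fell as well. CCNB1, the mitotic cyclin, had a log2 change of 0.043 (limma adjusted p = 0.714 with the block), and INCENP (-0.056), FZR1 (-0.12) and PPP2CA (-0.12) passed neither fit.

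Of 8 replisome cohesion factors, 5 fell with the block and none rose (median log2 change -0.31), where 12.4% of all tested genes were called lower. FPKM with the block left 2 called lower. The list medians in pairs 1, 2 and 3 were -0.61, -0.24 and -0.22, largest in size in pair 1. CLSPN, the checkpoint mediator claspin, had 507, 623 and 602 normalised counts in dox libraries, against 954, 998 and 872 in no dox libraries, with no overlap, and was called in both fits (log2 change -0.71, limma adjusted p = 0.0449 without the block). TIMELESS (-0.52) of the fork protection complex, the helicase DDX11 (-0.45), DSCC1 (-0.36) of the alternative clamp loader and WDHD1 (-0.27), which links helicase to polymerase, passed with the block. TIPIN (-0.069), CHTF18 (-0.11) and CHTF8 (-0.16) passed neither fit. CHTF18 had 580, 1128 and 755 normalised counts in dox libraries and 914, 894 and 766 in no dox libraries, so that dox library 2 was its highest value.

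The other regulators of the ring had a median log2 change of -0.0026, with 1 of 12 lower and 1 of 12 higher in the blocked fit, near the shares of all tested genes called there (12.4% lower and 10.2% higher). SGO2, the centromeric protector of cohesin that the files list as SGOL2, had 646, 920 and 720 normalised counts in dox libraries, against 1003, 1273 and 1059 in no dox libraries. Its groups did not overlap (log2 change -0.55, limma adjusted p = 0.154 without the block and 0.000247 with it). HDAC8, which removes the acetyl group from SMC3, had 516, 533 and 510 normalised counts in dox libraries and 424, 447 and 452 in no dox libraries. It was higher in every dox library and rose with the block only (log2 change 0.24, limma adjusted p = 0.0306), a call lost on the FPKM scale and in the blocked fits without pair 2 or pair 3. The scaffolds PDS5A (log2 change -0.071) and PDS5B (-0.065) passed neither fit.

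Of the related SMC5/6 complex, a separate SMC ring for DNA repair, 1 of 6 genes was called lower with the block. This is near the share of all tested genes called lower there (12.4%). The gene was SMC5 (log2 change -0.23, limma adjusted p = 0.00662), which was not called without pair 2. SMC6 (-0.082), NSMCE1 (0.061), NSMCE2 (-0.025) and NSMCE3 (-0.012) passed neither fit. The meiotic kleisin gene REC8 had 624, 686 and 546 normalised counts in dox libraries and 409, 435 and 378 in no dox libraries. It was higher in every dox library and rose with the block (log2 change 0.60, limma adjusted p = 0.000336, against 0.0701 without it). STAG3, the meiotic STAG subunit, had 48, 74 and 41 normalised counts in dox libraries and 29, 39 and 48 in no dox libraries, which overlapped, and passed neither fit. SMC1B (at most 0.0085 FPKM) and RAD21L1 (at most 0.104 FPKM) were not among the tested genes.

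**Figure D5:**
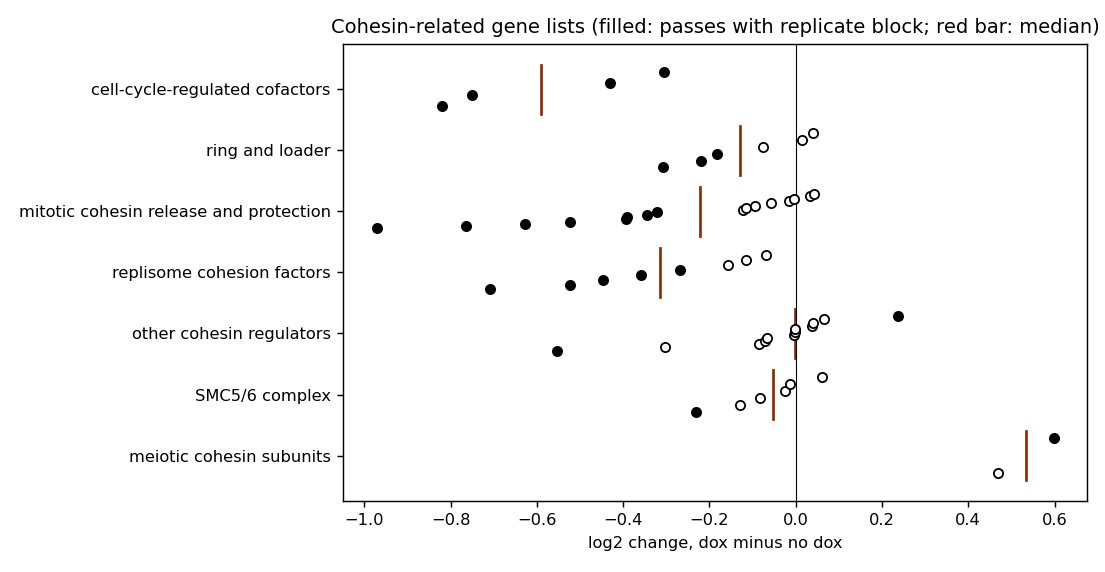
Log2 change, dox minus no dox (x axis), of each tested gene of the cohesin and cohesin-related lists, with filled points for genes that pass limma with the replicate block and a red bar at each list's median. The cofactor median is -0.59 and the ring and loader median -0.13, and REC8 and HDAC8 are the filled points to the right of 0.

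For each cofactor, the genes whose log2 normalised counts followed it most closely were found by Pearson's r over the 6 libraries, among genes at or above the median level. The libraries share the doxycycline groups and replicate numbers, so r mixes both, and it is given as a description. The genes named had the highest r of all those searched, so values near 1 follow in part from that choice. CDCA5 was followed most closely by ZBED1 (r = 0.997) and by CDT1 (r = 0.996), the replication licensing factor. Size is not measured by r: the log2 change of ZBED1 was -0.19, against -0.82 for CDCA5. CDT1 had 624, 769 and 745 normalised counts in dox libraries, against 1204, 1143 and 1016 in no dox libraries. ESCO2 was followed by BRIP1 (r = 0.994), a DNA repair helicase, and RAB27A (r = 0.990), a vesicle transport GTPase. ESPL1 was followed by LBR (r = 0.996), the lamin B receptor, and by SGO2 (r = 0.993), and PTTG1 by ATOH8 (r = 0.994).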

How the data were processed

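Polyadenylated RNA of 6 libraries was analysed, grouped and numbered by the sample titles. Nothing in the sources says that libraries of a group came from separate cultures, so p-values measure the spread between these libraries, which may be technical. The build hg19 and the tools TopHat, edgeR, bcl2fastq and Trimmomatic come from the submitters' processing notes, which give no versions. The authors deposited normalised counts, a depth-equalised signal with column totals of 27684571 to 29981945. They also deposited FPKM values, and a comparison table with CPM, log2 fold changes, a likelihood ratio score, p-values and adjusted p-values, per the file headers. FPKM equals CPM per kilobase of the authors' gene width. All CPM values (100%, tolerance 0.01) are whole multiples of 1 step per library, from which read totals were computed. In 3 columns too few low values were present to check the recovered reads fully, so the totals are estimates and no count test was run.

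limma-trend (limma 3.58.1, R 4.3.3) was fitted to log2(normalised count + 1) of the 13153 genes that reached 10 normalised counts in 3 or more libraries, two-sided, without a block, with Benjamini-Hochberg adjustment over all tested genes and a threshold of 0.05. Log2 changes are on that scale, which understates changes of low genes. Scaling alternatives moved the median of all genes by under 0.1. The groups share replicate numbers in the titles. Deviations from the group means correlated at 0.745, 0.726 and 0.768 for same-numbered libraries across genes, so the numbers were taken to pair the libraries. The other pairings were negatively correlated across genes, which adds no further evidence, because deviations from a group's own mean cancel within the group. Over the 10 cohesin genes the same-numbered values were 0.313, 0.731 and 0.410, and dox library 3 with no dox library 1 was also positive (0.044). Blocked values are given where they change a call. No libraries differed by as little as sampling noise (chi-square per degree of freedom at least 16.0). The fits were tested on simulated data. Figures and tables were made with Python 3.11.15, numpy 2.4.6, pandas 2.3.3 and matplotlib 3.10.9.

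Named were the 10 cohesin genes, FOXM1, in every other list each gene called with or without the block and up to 4 more in list order, and the 2 genes most like each cofactor, of which 1 item is not reported here. UTP23, PCCB, PBK, PTTG2, PTTG3P, SMC3P1 and ESCO1 were named outside this rule, as overlapping genes, copies or paralogues, after their values were seen. The genes, lists and tests were chosen with earlier results of these data known. PECAM1 was not matched among the marker genes. Alternatives were other pseudocounts (0.25 and 5), filters, scalings, FPKM as log2(FPKM + 0.1), the replicate block and leaving out libraries. FPKM with the block and the block without each pair were added after the data were seen.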

Additional observations from a re-analysis of the deposited data

How the results depend on the processing

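Without the block 42 genes were called higher and 29 lower, among them 1 cofactor (CDCA5) and 0 ring and loader genes. Other pseudocounts, filters, TMM scaling and median-of-ratios scaling kept these counts within 1.5 times. With FPKM the counts were 26 higher and 5 lower with 0 cofactors, and CDCA5 had a limma adjusted p of 0.0850. The replicate block, which takes the pairing into account, gave 1338 higher and 1627 lower, with 4 cofactors and 3 ring and loader genes lower. FPKM with the block gave 1154 higher and 927 lower, with 2 cofactors (CDCA5, ESPL1) and 2 ring and loader genes (SMC1A, RAD21) lower. The block without pair 1, pair 2 or pair 3 gave 1761, 584 and 772 genes higher and 2074, 830 and 1007 lower, with 4 cofactors lower each time and 3, 2 and 2 ring and loader genes. Leaving out each library without the block gave 3 to 16 genes higher and 0 to 5 lower, with 0 cofactors. The cause of these differences was not tested.

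The sign turned for the 3 genes that passed no fit. Leaving out 1 library at a time gave log2 changes of -0.23 to 0.092 for SMC3, positive without dox library 1 (0.092) or no dox library 2 (0.022). For STAG2 it gave -0.11 to 0.15, negative without dox library 2 (-0.019), dox library 3 (-0.0065) or no dox library 1 (-0.11). For NIPBL it gave -0.12 to 0.12, negative without dox library 2 (-0.12), no dox library 1 (-0.063) or no dox library 3 (-0.015). With the block, leaving out pair 1 gave -0.0059 for STAG2 and -0.017 for NIPBL, and leaving out pair 2 gave -0.017 for NIPBL. The other 7 genes kept a negative sign under all alternatives run. Count tests on reads (edgeR quasi-likelihood, with and without the block, and DESeq2) were not run. The block leaves 2 residual degrees of freedom with all 6 libraries, and the shallowest library held 15094498 reads. Fewer residual degrees of freedom are left without a pair, so the adjusted p-values of those fits rest largely on the variance that limma shares over genes.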
